A study of Mus musculus with 8 samples.

Results

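The 10 genes described here encode the integrin subunits through which bone cells hold on to the extracellular matrix: Itga1, Itga5, Itga6, Itga8, Itga10, Itga11, Itgav, Itgb1, Itgb3 and Itgb5. They were taken by name from the gene column of the count tables, where all 10 were found among 28956 genes. The tables held 27 genes of integrin subunits in all. An integrin is a heterodimer of 1 alpha and 1 beta subunit that spans the plasma membrane, binds a matrix protein outside the cell and is coupled to actin by adaptor proteins inside it. The alpha subunit largely sets the ligand. The products of Itga1, Itga10 and Itga11 pair with the beta 1 subunit and bind collagens, that of Itga6 binds laminins of basement membranes, and those of Itga5, Itga8 and Itgav recognise the arginine-glycine-aspartate motif of fibronectin, nephronectin, vitronectin, osteopontin and related proteins. In bone these receptors anchor chondrocytes in cartilage, osteoblasts on bone matrix and vessel cells on their basement membrane.

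Non-haematopoietic stromal cells of the femur of C57BL/6 female mice were analysed by single-cell RNA sequencing in droplets. Control cells came from unfractured bone of 12-week-old animals. Fracture cells came from the left femur broken at 10 weeks by three-point bending and held with an intramedullary nail, which was taken at day 14 after fracture, at the same age of 12 weeks, when callus cartilage is being replaced by bone. In both groups blood cells had been depleted with magnetic beads against lineage markers, CD45 and CD117, and each group held 2 preparations with 2 libraries each. The labels do not say that preparations 1 and 2 are separate animals, so the p-values within a class measure the spread between preparations, which may be technical. The 8 libraries held 56543151 to 89126291 UMIs, a UMI standing for 1 captured transcript, and pairs of libraries shared 10 to 23 cell barcodes. After filtering, 45328 of 48903 barcodes remained. Control preparations held 12755 and 7921 of these cells and Fracture preparations 11867 and 12785, or 85.6% and 99.6% of the deposited barcodes of each group. A median Control cell had 7711 and a median Fracture cell 11351 UMIs.

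Cells were clustered without integrin and cell cycle genes and named from marker lists. Of the 6 classes of stromal cells, chondrocyte-like cells numbered 2062 and 675 in the Control and 6792 and 7107 in the Fracture preparations. Osteoblast-like cells numbered 1692, 1004, 1643 and 1767 in the same order. BMSC-like cells, the Cxcl12- and Lepr-expressing stromal cells of the marrow, numbered 2631, 1724, 1055 and 1134. Fibroblast-like cells numbered 384, 135, 680 and 810, endothelial-like cells 1629, 1252, 1206 and 1399, and smooth muscle-like cells 731, 211, 166 and 168. All 6 markers of a list were raised at least 2-fold, and found in at least 10% of cells, in the cluster or clusters given its name, except in the osteoblast-like cluster, where 5 of 6 were. A fold below is always Fracture over Control within a class, and a level is CPM, the UMIs of the gene per 1000000 UMIs of that class in 1 preparation.

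Several properties of the classes moved with the groups and bear on the comparisons. First, BMSC-like cells of the Fracture group carried far less of the RNA that defined them. The summed level of the 6 BMSC-like markers was 25791 and 27162 CPM in Control and 1854 and 2179 CPM in Fracture, 13.1-fold lower in Fracture. When libraries were clustered without being integrated, 79 and 101 of the 1055 and 1134 BMSC-like Fracture cells stayed BMSC-like, 444 and 473 joined the fibroblast-like and 511 and 522 the osteoblast-like cells. In chondrocyte-like cells the sum of own markers was 77406 and 68742 CPM in Control and 82513 and 82519 CPM in Fracture, 1.13-fold higher in Fracture, with Acan 1.41-fold higher and Sox9 1.55-fold lower. In the other 4 classes it was lower in Fracture, though not every marker was. It was 2.78-fold lower in fibroblast-like cells, where Prg4 was 5.46-fold lower while Dpt, Mfap5 and Clec3b were 3.3-, 2.47- and 1.18-fold higher. It was 2.57-fold lower in osteoblast-like cells, where Bglap and Bglap2 were 2.63- and 2.79-fold lower and Ifitm5 and Smpd3 1.22- and 1.15-fold higher. Smooth muscle-like cells had a sum 1.69-fold lower, with Myh11 5.45-fold lower and Des 1.64-fold higher, and endothelial-like cells one 1.17-fold lower. So a class is here a set of cells matched by integration, and a change of level within the same cells cannot be told apart from a change in which cells make up the class.

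Second, cartilage RNA was more abundant after fracture in BMSC-like, fibroblast-like, endothelial-like and smooth muscle-like cells, and less abundant in osteoblast-like cells. The summed level of 6 chondrocyte markers was 1960.3 and 849.9 CPM in Control and 12069.7 and 12263 CPM in Fracture in endothelial-like cells, where 6 of 6 markers were higher in Fracture and none was at 0. It was 1178 and 987 CPM in Control and 12022 and 8297 CPM in Fracture in smooth muscle-like cells and 597 and 255 CPM in Control and 2522 and 2629 CPM in Fracture in BMSC-like cells, again with 6 of 6 markers higher. Fibroblast-like cells had 3367 and 2192 CPM in Control and 11387 and 10201 CPM in Fracture, whereas osteoblast-like cells had 3284 and 2737 CPM in Control and 2370.0 and 2197 CPM in Fracture. The median cell of the endothelial-like class had 0.0174% of its UMIs from these markers in Control and 0.119% in Fracture, and the median erythroid-like cell, a blood cell that should lack them, had 0.00856% and 0.125%. Finally, the summed level of 6 megakaryocyte markers was lower in the Fracture group of every class. It was 390.5 and 225 CPM in Control and 24.5 and 25 CPM in Fracture in endothelial-like, 379.9 and 115 CPM in Control and 16.6 and 28.9 CPM in Fracture in BMSC-like and 178 and 47.3 CPM in Control and 16.7 and 13.9 CPM in Fracture in osteoblast-like cells. The mean sum of the erythroid markers was higher after fracture in the same classes. It was 64.6 and 141 CPM in Control and 5126 and 5271 CPM in Fracture in smooth muscle-like cells, where the difference was widest, and 150.1 and 1478 CPM in Control and 1265 and 3043 CPM in Fracture in BMSC-like cells, where the groups overlapped. The part of these RNAs in the differences below was not tested, except where a value without the affected cells is given.

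All members are protein-coding genes with coordinates in GENCODE M21 (GRCm38), and their count here is the sum over the whole gene. Itga8 lies on chromosome 2 from 12106632 to 12301922 on the minus strand, with Itga6 (71745616 to 71858416) and Itgav (83724397 to 83806916) on the plus strand of the same chromosome. Itga10 (chromosome 3, 96645584 to 96664519), Itgb1 (chromosome 8, 128685654 to 128733200), Itga11 (chromosome 9, 62677826 to 62783982), Itgb3 (chromosome 11, 104608000 to 104670476) and Itgb5 (chromosome 16, 33829665 to 33949338) are on the plus strand. Itga1 (chromosome 13, 114953096 to 115101964) and Itga5 (chromosome 15, 103344286 to 103366763) are on the minus strand. Other annotated genes overlap 6 of the 10 members. Among them, Pelo and Gm49395 overlap Itga1, and Gm42957 overlaps Itga10, as protein-coding genes on the same strand, so reads of these pairs could have been shared between them.

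Each member had its own pattern over the classes, set out here from the plain CPM of the class sums (mean ± SD, n = 2 preparations) as a description. Itgb1, the beta subunit shared by most collagen, laminin and fibronectin receptors, was found at 798 ± 0.912 CPM in smooth muscle-like, 541 ± 0.128 in endothelial-like, 513 ± 26.3 in BMSC-like, 373 ± 40.1 in fibroblast-like, 289 ± 3.6 in osteoblast-like and 156 ± 1.5 in chondrocyte-like Control cells. No neighbours in that order overlapped between preparations, and in both groups Itgb1 was highest in smooth muscle-like and lowest in chondrocyte-like cells. Itga6, the laminin receptor subunit, was highest in endothelial-like cells at 332 ± 51.7 CPM in Control and 305 ± 4.27 in Fracture. Itga8 was highest in smooth muscle-like cells at 99.6 ± 44.1 CPM in Control and 26.6 ± 13 in Fracture. Itga10 was highest in osteoblast-like cells, at 112 ± 2.53 and 91.1 ± 0.867 CPM, followed by chondrocyte-like cells at 90.5 ± 11.4 and 69.6 ± 1.02 CPM. Itga11 was highest in BMSC-like cells, at 62.9 ± 0.273 and 101 ± 0.946 CPM.

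The remaining members were spread over several classes. Itga1 ranged in Control from 152 CPM in endothelial-like, 152 in BMSC-like and 144 in smooth muscle-like cells, which overlapped, to 17.8 in fibroblast-like, 14.2 in chondrocyte-like and 1.26 in osteoblast-like cells. In Fracture the order changed to 288 CPM in smooth muscle-like, 48.3 in endothelial-like, 34 in BMSC-like, 23.3 in chondrocyte-like, 5.1 in fibroblast-like and 1.19 in osteoblast-like cells, with no overlap between neighbours. Itga5 was highest in endothelial-like cells (106 CPM in Control, 126 in Fracture) and fibroblast-like cells (75.1 and 89.4) and lowest in osteoblast-like cells (4.91 and 10.8). Itgav was highest in BMSC-like Control cells at 156 CPM, and in Fracture smooth muscle-like (135) and BMSC-like cells (133) overlapped. Itgb3 was highest in fibroblast-like cells (49.7 and 51.1 CPM), whose Control preparations overlapped those of BMSC-like cells (40.5 CPM in Control). Itgb5 was highest in fibroblast-like Control cells (224 CPM) and in BMSC-like Fracture cells (231 CPM), and lowest in endothelial-like cells of both groups (10.6 and 27.9 CPM).

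**Figure D1:**
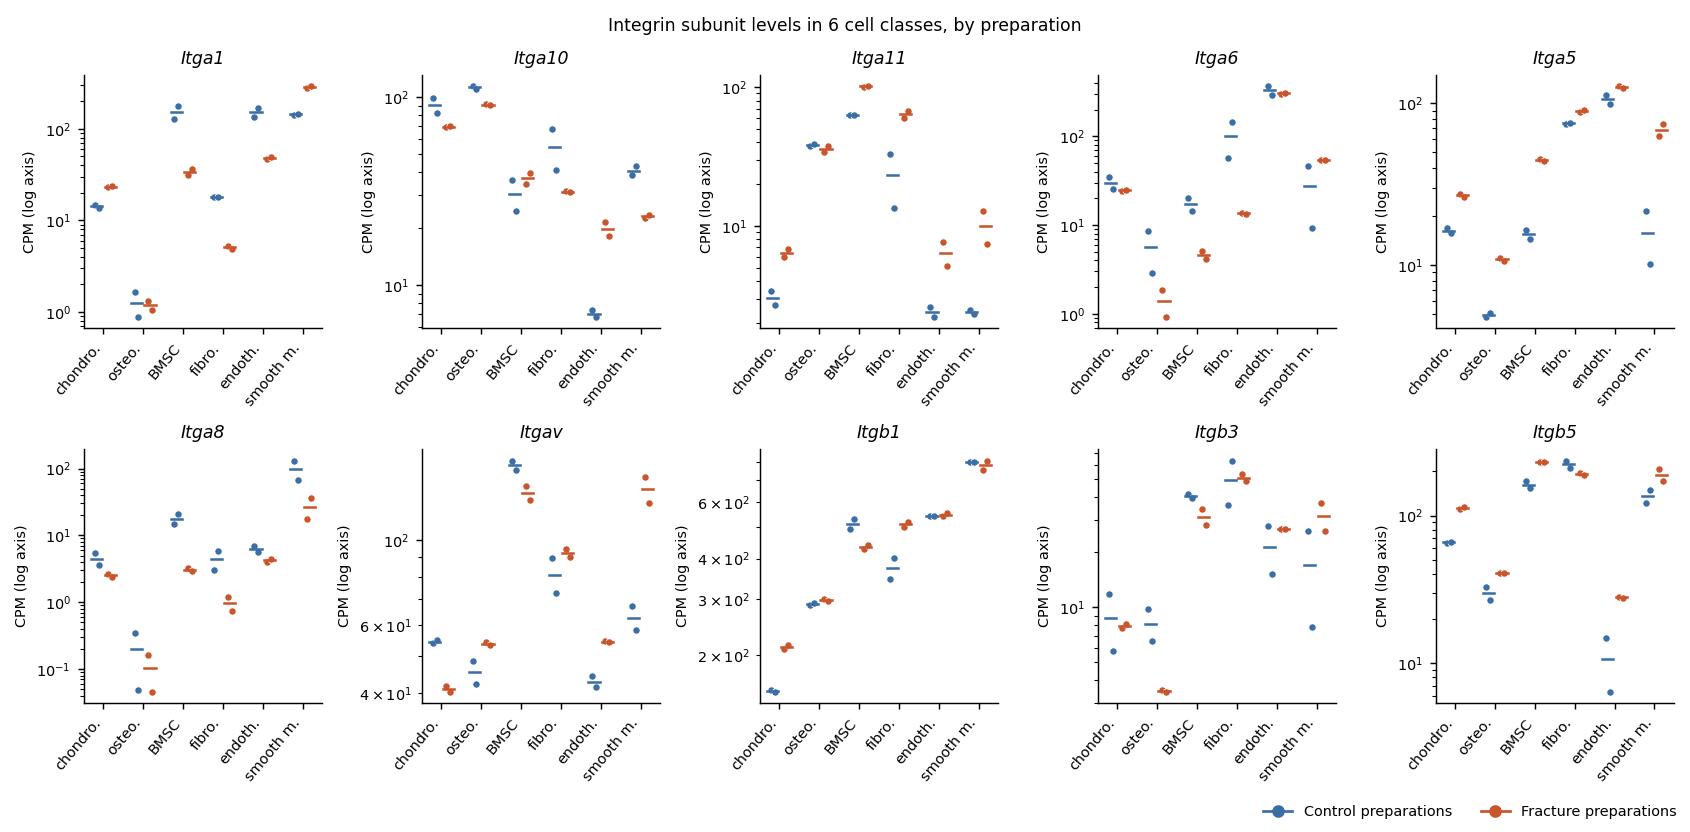
Level of each member (CPM of the UMI sum of a class, log axis) in the 6 classes, with 1 point per preparation, Control and Fracture in separate colours and bars at the group mean. Itga6 stands highest in endothelial-like cells of both groups, at 332 and 305 CPM, while Itga1 falls from 152 to 34 CPM in BMSC-like and rises from 144 to 288 CPM in smooth muscle-like cells.

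The make-up of the suspension differed between the groups, and so did the classes that supplied the UMIs of a member. Chondrocyte-like cells were 18% in Control and 58.1% in Fracture of the cells of the 6 classes (mean of 2 preparations). BMSC-like cells were 31.6% in Control and 9.15% in Fracture. For Itga1, BMSC-like cells supplied 51.3% in Control and 10% in Fracture of the UMIs of the 6 classes, while chondrocyte-like cells supplied 7.29% in Control and 60% in Fracture. Most Itga1 UMIs of the 6 classes in Fracture thus came from chondrocyte-like cells, at a share close to their 58.1% of the cells. The CPM was higher in smooth muscle-like cells. The chondrocyte-like share of UMIs was higher in Fracture for every member. Itgb5 shifted in the same direction, since BMSC-like cells supplied 44.5% in Control and 15.4% in Fracture and chondrocyte-like cells 24.8% in Control and 65.6% in Fracture. Itga10 UMIs moved from osteoblast-like cells (53.9% in Control and 19.4% in Fracture) to chondrocyte-like cells (33.2% in Control and 70.5% in Fracture). Within the 6 classes Itga6 remained mostly endothelial, with 69.3% in Control and 58.9% in Fracture. Megakaryocyte-like cells, which held higher levels of Itga6, are outside these classes and not counted here. These shares mix the number of cells recovered with the level in each class, and recovery may differ between suspensions.

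**Figure D2:**
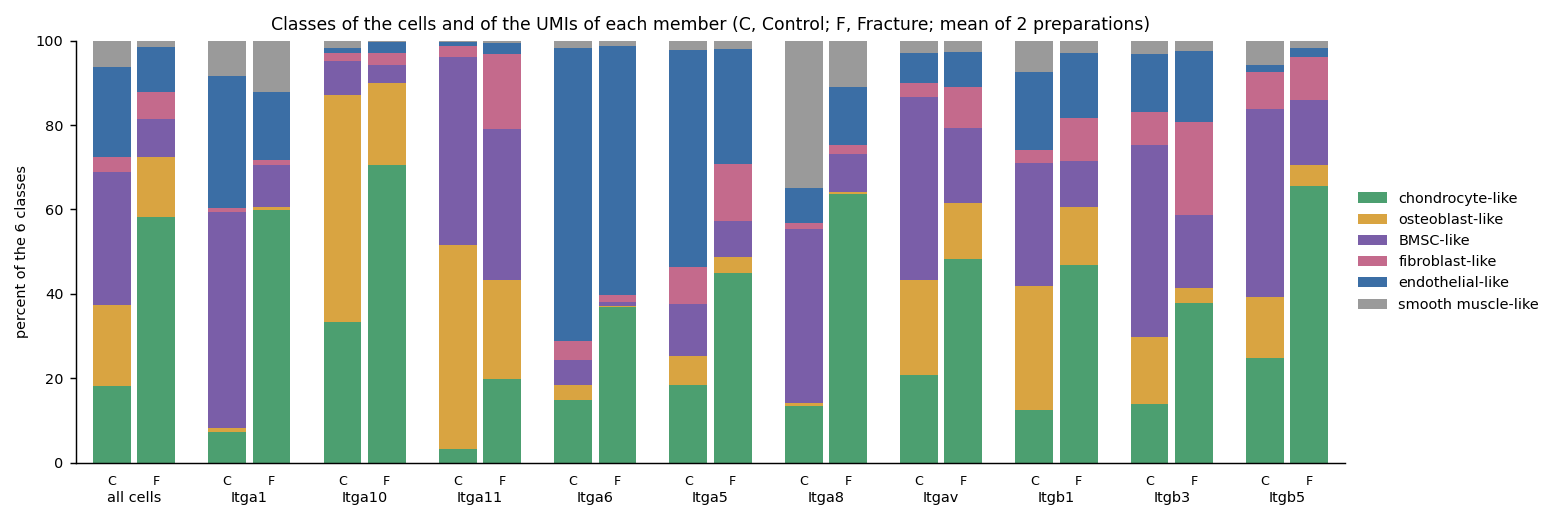
Share (percent) of the cells and of the UMIs of each member supplied by each of the 6 classes, as the mean of 2 preparations in Control and in Fracture. Chondrocyte-like cells take 18% in Control and 58.1% in Fracture of the cells, and a larger share of the UMIs of every member in Fracture than in Control.

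Fracture was compared with Control within each class on UMI sums per preparation by edgeR's quasi-likelihood test with Benjamini-Hochberg adjustment over all genes tested, and a gene was called when its adjusted p was under 0.05. From here the CPM of the stromal comparisons are TMM-normalised, and every adjusted p is from this test. Of 60 pairs of member and class, 59 could be tested and 30 were called, 19 higher and 11 lower in Fracture. In chondrocyte-like cells 5 members rose and 1 fell, where 37.1% of all genes tested were called. In BMSC-like cells 3 rose and 3 fell (51.6% of all genes). Endothelial-like cells had 5 members higher and 1 lower (36.2% of all genes), and smooth muscle-like cells 4 higher and 2 lower (28% of all genes). Fewer were called in fibroblast-like cells, with 1 higher and 2 lower (17% of all genes), and in osteoblast-like cells, with 1 higher and 2 lower of 9 tested (16.7% of all genes). The median log2 fold change of the members was 0.84 in smooth muscle-like, 0.41 in endothelial-like, 0.28 in chondrocyte-like, 0.017 in fibroblast-like, -0.049 in BMSC-like and -0.15 in osteoblast-like cells, against 0.0054, 0.012, -0.0052, -0.0018, -0.027 and -0.0025 over all genes tested.

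Calls depended on having both Fracture preparations. With either one left out, 7 of the 30 pairs stayed called both times, the 6 of BMSC-like cells and Itga1 in smooth muscle-like cells, and 1 stayed called once (Itgav in smooth muscle-like cells). No member was then called in chondrocyte-like, osteoblast-like, fibroblast-like or endothelial-like cells, where at most 1.48% of all genes were, and 2 to 5 members of a class had an unadjusted p under 0.05. The edgeR test then has 1 preparation in the Fracture arm, assumed to vary like the Control preparations. With a Control preparation left out instead, 5 to 10 members were called in each class, where 19% to 60.7% of all genes were. The labels do not say whether the preparation numbers pair the samples. With the number as a block, 5 members were called in chondrocyte-like, 4 in osteoblast-like and 6 in BMSC-like cells. It left 2 called in fibroblast-like, 5 in endothelial-like and 3 in smooth muscle-like cells. Over the 6 classes 5.68% to 47.6% of all genes were then called. Scaling also mattered for the split of directions. By total UMI count alone, without TMM, the median log2 fold change of all genes was -0.16 in chondrocyte-like, -0.22 in BMSC-like and -0.11 in endothelial-like cells, and 5 members were called higher and 3 lower in chondrocyte-like, 1 and 1 in osteoblast-like, 0 and 2 in fibroblast-like and 4 and 1 in endothelial-like cells.

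**Figure D3:**
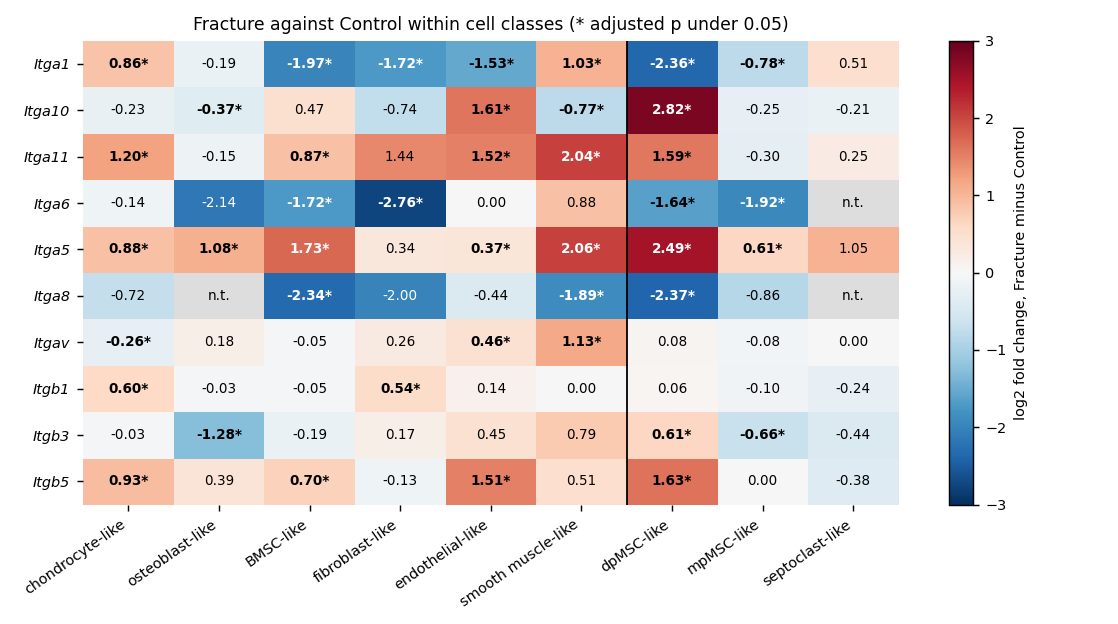
Log2 fold change of Fracture over Control for each member in the 6 classes and 3 subclasses (colour and printed value, n.t. where not tested), with called pairs marked by an asterisk. Itga1 runs from -1.97 in BMSC-like to 1.03 in smooth muscle-like cells, and Itga5 is called higher in 5 of the 6 classes.

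Among the collagen receptors, Itga1 moved in opposite directions in different classes. Its product forms the alpha 1 beta 1 integrin, which prefers collagens of basement membranes and loose tissue. In BMSC-like cells its level was 119 and 166 CPM in Control and 33.6 and 39.2 CPM in Fracture. Both Fracture preparations lay far below both Control preparations (log2 fold change -1.97, SE 0.19, adjusted p = 0.00304). Endothelial-like cells had 129 and 164 CPM in Control and 48.9 and 52 CPM in Fracture, and here too the gene fell without overlap (log2 fold change -1.53, SE 0.14, adjusted p = 0.00604). Fibroblast-like cells dropped from low values, 17.7 and 17 CPM in Control and 5.43 and 5.11 CPM in Fracture (log2 fold change -1.72, SE 0.20, adjusted p = 0.0113). Smooth muscle-like cells went the other way, with 142 and 145 CPM in Control and 289 and 299 CPM in Fracture. There the Fracture preparations stood at about the same level as each other and well above Control (log2 fold change 1.03, SE 0.12, adjusted p = 0.00391). Chondrocyte-like cells also rose, from 13.8 and 13.2 to 24.1 and 25.1 CPM (log2 fold change 0.86, SE 0.068, adjusted p = 0.00354). Osteoblast-like cells held 1.64 and 0.925 CPM in Control and 1.25 and 1.06 CPM in Fracture, and these groups overlapped (log2 fold change -0.19, adjusted p = 0.745). With 1 Fracture preparation left out, the adjusted p was 0.0322 to 0.0378 in BMSC-like and 0.0391 to 0.0426 in smooth muscle-like cells, and 0.0726 to 0.198 over chondrocyte-like, endothelial-like and fibroblast-like cells. Without integration of the libraries, the difference was -0.47 on the log2 scale in the few cells still called BMSC-like (adjusted p = 0.18) and -0.51 in fibroblast-like cells (adjusted p = 0.0963).

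Itga10, whose product binds collagen II in cartilage as alpha 10 beta 1, did not pass the test in chondrocyte-like cells. Its level there was 92.9 and 79 CPM in Control and 71.9 and 74.6 CPM in Fracture (log2 fold change -0.23, adjusted p = 0.124), with both Fracture preparations below both Control preparations, and by total UMI count alone it was called lower (log2 fold change -0.38, adjusted p = 0.0431). In osteoblast-like cells it was 114 and 116 CPM in Control and 87.6 and 90.6 CPM in Fracture. The fall was small and free of overlap (log2 fold change -0.37, SE 0.062, adjusted p = 0.0253), and it was no longer called by total UMI count (log2 fold change -0.30, adjusted p = 0.0603). In a finer clustering of pooled stromal cells, an unnamed subcluster with Itga10 among its leading genes held 315 and 306 Control and 159 and 239 Fracture cells. The part of that subcluster in the osteoblast-like fall was not tested. Smooth muscle-like cells had 38.6 and 42.8 CPM in Control and 23.3 and 24 CPM in Fracture and were called lower (log2 fold change -0.77, SE 0.20, adjusted p = 0.0376). That call was lost by DESeq2 (log2 fold change -0.77, adjusted p = 0.11), in cells of at least 3000 UMIs (log2 fold change -0.69, adjusted p = 0.0641) and without integration (log2 fold change -0.60, adjusted p = 0.071). Endothelial-like cells rose from 6.99 and 6.56 to 22.4 and 19.2 CPM (log2 fold change 1.61, SE 0.14, adjusted p = 0.0060). The rise was smaller, though still called, without the subclusters led by markers of another class (log2 fold change 0.86, adjusted p = 0.0346) and without cells that had over 0.5% of their UMIs from chondrocyte markers (log2 fold change 1.28, adjusted p = 0.0102). Over the same groups the erythroid-like cells rose from a mean of 5.98 to 16.2 CPM. Without integration, 34 of the 206 and 26 of the 283 Fracture erythroid-like cells were named chondrocyte-like. In Control 3 of 639 and 7 of 1775 were. The level in erythroid-like cells is therefore not a measure of free RNA alone. BMSC-like (log2 fold change 0.47, adjusted p = 0.119) and fibroblast-like cells (log2 fold change -0.74, adjusted p = 0.113) did not pass the test. None of the 3 calls held with 1 Fracture preparation left out, the adjusted p then being 0.096 to 0.219.

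Itga11, the alpha subunit of a receptor for fibrillar collagen on mesenchymal cells, was called higher in 4 classes and lower in none. BMSC-like cells, where it was most abundant, held 58.5 and 59.6 CPM in Control and 107 and 109.6 CPM in Fracture. The Fracture values were close to each other and above both Control values (log2 fold change 0.87, SE 0.070, adjusted p = 0.00229). The other rises began from low levels. Chondrocyte-like cells held 3.18 and 2.57 CPM in Control and 6.26 and 7.25 CPM in Fracture (log2 fold change 1.20, SE 0.15, adjusted p = 0.00865), and endothelial-like cells 2.47 and 2.15 CPM in Control and 7.92 and 5.43 CPM in Fracture (log2 fold change 1.52, SE 0.29, adjusted p = 0.0215). In smooth muscle-like cells the call rested on 9 and 3 UMIs in Control and 19 and 12 UMIs in Fracture (log2 fold change 2.04, SE 0.48, adjusted p = 0.031). The call of Itga11 in smooth muscle-like cells was lost by DESeq2 (log2 fold change 2.09, adjusted p = 0.0558), without Control preparation 1 (log2 fold change 2.08, adjusted p = 0.0766) and without integration (log2 fold change 1.33, adjusted p = 0.114), and that in endothelial-like cells without the subclusters led by markers of another class (log2 fold change 1.62, adjusted p = 0.0508). Erythroid-like cells also rose, from a mean of 1.04 to 7.55 CPM. That is at or above the mean plain Fracture level of endothelial-like (6.4 CPM) and of chondrocyte-like cells (6.41 CPM). Smooth muscle-like Fracture cells held a mean of 10.1 CPM. Fibroblast-like cells held 33.1 and 12.7 CPM in Control and 61.9 and 70 CPM in Fracture, with no overlap and without passing the test (log2 fold change 1.44, adjusted p = 0.0653). Osteoblast-like cells held 37.7 and 40.9 CPM in Control and 32.7 and 38 CPM in Fracture (log2 fold change -0.15, adjusted p = 0.353). The adjusted p without 1 of the Fracture preparations was 0.0318 to 0.0339 in BMSC-like cells and 0.0899 to 0.303 in the other 3 classes. Without integration, the BMSC-like value was 0.038 (adjusted p = 0.926).

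Itga6, the laminin receptor subunit, was not called in the class that expressed it most among the 6. Endothelial-like cells had 352 and 287 CPM in Control and 313 and 324 CPM in Fracture, and the groups overlapped (log2 fold change -0.0032, SE 0.11, adjusted p = 0.985). BMSC-like cells fell from 18.9 and 13.6 to 5.39 and 4.47 CPM (log2 fold change -1.72, SE 0.23, adjusted p = 0.00529). Fibroblast-like cells fell from 56.2 and 138 CPM, which differed from each other, to 14.1 and 13.9 CPM (log2 fold change -2.76, SE 0.45, adjusted p = 0.0228). The gene was not called in osteoblast-like (log2 fold change -2.14, adjusted p = 0.0778), chondrocyte-like (log2 fold change -0.14, adjusted p = 0.51) or smooth muscle-like cells (log2 fold change 0.88, adjusted p = 0.337). Megakaryocytes express Itga6 strongly, and the megakaryocyte-like cells held a mean of 7320.1 CPM in Control and 4985 CPM in Fracture. Per 100 UMIs of the 6 megakaryocyte markers, BMSC-like cells held 5.34 and 12.6 in Control and 30.6 and 14.4 in Fracture UMIs of Itga6, and the megakaryocyte-like cells themselves 21.2 and 37.4 in Control and 24.1 and 42.4 in Fracture. In Control the BMSC-like ratio was thus below that of the megakaryocyte-like cells, as was the osteoblast-like one, at 4.79 and 6.12 in Control and 11.1 and 6.62 in Fracture, whereas endothelial-like cells held 94.5 and 132 in Control and 1234 and 1232 in Fracture. Fibroblast-like cells held 19.2 and 193 in Control and 63 and 26.1 in Fracture. There 1 Control preparation lay below both Control values of the megakaryocyte-like cells and the other far above them. The part of this RNA in the falls was not tested. With 1 Fracture preparation left out, the adjusted p was 0.044 to 0.0472 in BMSC-like and 0.228 to 0.232 in fibroblast-like cells. Without Control preparation 2 the log2 fold change of Itga6 in fibroblast-like cells was -1.997 (adjusted p = 0.000306). Without integration, the BMSC-like value was -1.68 (adjusted p = 0.119).

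Itga5 pairs with the beta 1 subunit in the main fibronectin receptor, and was called higher in 5 of 6 classes, more than any other member. The widest difference was in smooth muscle-like cells, with 21.5 and 10.1 CPM in Control and 63.8 and 76.3 CPM in Fracture (log2 fold change 2.06, SE 0.34, adjusted p = 0.0117, and 2.78 without Control preparation 1). BMSC-like cells held 15.3 and 13.7 CPM in Control and 48.4 and 47.5 CPM in Fracture. Preparations of a group lay close together and the groups were well apart (log2 fold change 1.73, SE 0.10, adjusted p = 0.00162). Osteoblast-like cells, the lowest of all, rose from 4.78 and 5.29 to 10.5 and 10.7 CPM (log2 fold change 1.08, SE 0.11, adjusted p = 0.0102). Chondrocyte-like cells rose from 15.9 and 15 to 28.5 and 28.1 CPM (log2 fold change 0.88, SE 0.065, adjusted p = 0.00313). Endothelial-like cells, the highest, changed least among the called classes, with 108 and 96 CPM in Control and 133 and 131 CPM in Fracture (log2 fold change 0.37, SE 0.081, adjusted p = 0.0283), and this call was lost by total UMI count (log2 fold change 0.25, adjusted p = 0.0855). Fibroblast-like cells had 74.2 and 72.1 CPM in Control and 91.3 and 93.9 CPM in Fracture and did not pass the test (log2 fold change 0.34, adjusted p = 0.0854). Itga5 fell in the erythroid-like cells, from a mean of 21.8 to 12.6 CPM, a level given here without a test. The adjusted p with 1 Fracture preparation left out was 0.0274 to 0.0307 in BMSC-like cells and 0.0699 to 0.183 in the other 4 classes. Without integration the BMSC-like value was 0.46 (adjusted p = 0.429).

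The promoter windows of Itga5, called higher in 5 classes, and of Itgb5, called higher in 3 of these, are shown because each holds more than 1 GC box. The 250 bases before the annotated start are given 5′ to 3′ on the strand of the gene, from RefSeq on GRCm38.p6, at chr15:103366792-103367041 (minus strand) for Itga5 and chr16:33829415-33829664 (plus strand) for Itgb5. Capitals mark GGGCGG, the GC box, or its reverse complement CCGCCC.
Itga5: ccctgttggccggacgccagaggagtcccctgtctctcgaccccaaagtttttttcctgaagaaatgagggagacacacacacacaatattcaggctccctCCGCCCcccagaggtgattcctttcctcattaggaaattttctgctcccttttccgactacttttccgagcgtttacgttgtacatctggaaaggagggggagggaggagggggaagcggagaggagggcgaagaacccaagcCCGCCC
Itgb5: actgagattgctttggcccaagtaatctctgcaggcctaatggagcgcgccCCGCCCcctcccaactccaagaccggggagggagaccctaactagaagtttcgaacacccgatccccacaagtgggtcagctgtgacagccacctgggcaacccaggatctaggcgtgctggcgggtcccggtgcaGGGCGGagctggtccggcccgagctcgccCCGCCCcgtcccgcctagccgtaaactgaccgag
There were 2 matches before Itga5, 3 before Itgb5 and 1 before Itgb1, and none before Itga1, Itga8, Itga10, Itga11 and Itgav. Thus 3 of 8 members with a window held the motif, against 32.7% of the 32851 promoter windows of the same length. A match is a stretch of letters and says nothing of binding.

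Itga8, which with the beta 1 subunit binds nephronectin and marks vascular and visceral smooth muscle, was called lower in 2 classes of the 5 tested. Smooth muscle-like cells held 131 and 68.4 CPM in Control and 17.8 and 36.6 CPM in Fracture. Preparations of the same group differed widely from each other, yet the groups did not overlap (log2 fold change -1.89, SE 0.44, adjusted p = 0.0295, and -2.49 without Fracture preparation 2). BMSC-like cells fell from 14 and 19.5 to 3.42 and 3.17 CPM (log2 fold change -2.34, SE 0.22, adjusted p = 0.00291). Chondrocyte-like (log2 fold change -0.72, adjusted p = 0.062), fibroblast-like (log2 fold change -2.0, adjusted p = 0.0605) and endothelial-like cells (log2 fold change -0.44, adjusted p = 0.161) did not pass the test, and in osteoblast-like cells the gene was below the filter on low counts. Leaving out 1 Fracture preparation gave an adjusted p of 0.0339 to 0.0364 in BMSC-like and 0.0652 to 0.147 in smooth muscle-like cells. Without integration, the BMSC-like value was -0.34 (adjusted p = 0.586).

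Itgav encodes the alpha V subunit, which pairs with beta 1, beta 3, beta 5 and other beta subunits and binds vitronectin, osteopontin and fibronectin. Smooth muscle-like cells had 67.5 and 58.3 CPM in Control and 149 and 127 CPM in Fracture. The rise was free of overlap (log2 fold change 1.13, SE 0.15, adjusted p = 0.00649). Endothelial-like cells had 42.2 and 40.2 CPM in Control and 56.7 and 57.1 CPM in Fracture, a smaller rise (log2 fold change 0.46, SE 0.079, adjusted p = 0.0163). Chondrocyte-like cells had 50.7 and 52.6 CPM in Control and 43.7 and 42.9 CPM in Fracture, a fall of similar precision (log2 fold change -0.26, SE 0.055, adjusted p = 0.0277), which was not called without the filter on low counts (log2 fold change -0.21, adjusted p = 0.0985) or at a finer clustering (log2 fold change -0.17, adjusted p = 0.0969). BMSC-like cells, with the highest Control level, had 149 and 144 CPM in Control and 147 and 137 CPM in Fracture, and the groups overlapped (log2 fold change -0.048, adjusted p = 0.621). Osteoblast-like (log2 fold change 0.18, adjusted p = 0.19) and fibroblast-like cells (log2 fold change 0.26, adjusted p = 0.285) did not pass the test. With 1 Fracture preparation left out, the adjusted p was 0.0382 to 0.061 in smooth muscle-like cells and 0.137 to 0.235 in the other 2.

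Of the beta subunits, Itgb1 was called in 2 of the 6 classes, higher in both. Chondrocyte-like cells, where it was lowest, had 148 and 148 CPM in Control and 219 and 229 CPM in Fracture. The Control preparations were alike and both Fracture preparations were higher (log2 fold change 0.60, SE 0.049, adjusted p = 0.00374). Fibroblast-like cells had 344 and 382 CPM in Control and 515 and 541 CPM in Fracture (log2 fold change 0.54, SE 0.12, adjusted p = 0.0443), and this call was lost by total UMI count (log2 fold change 0.45, adjusted p = 0.079). It was also lost in cells of at least 3000 UMIs, without integration, without the 6% of cells with the highest doublet scores and without subclusters led by markers of another class (adjusted p 0.0517 to 0.0983), with log2 fold changes of 0.50 to 0.53. In the other classes the log2 fold change was -0.050 in BMSC-like, -0.030 in osteoblast-like, -0.0049 in smooth muscle-like and 0.14 in endothelial-like cells, with adjusted p values of 0.653, 0.784, 0.983 and 0.166. Smooth muscle-like cells, the highest, had 799 and 799 CPM in Control and 772 and 821 CPM in Fracture, and the groups overlapped. With 1 Fracture preparation left out, the adjusted p of the called classes was 0.0661 to 0.41.

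Itgb3 pairs with alpha V on stromal cells and with alpha IIb on megakaryocytes and platelets. Only osteoblast-like cells were called, with 9.79 and 6.83 CPM in Control and 3.39 and 3.46 CPM in Fracture. Both Fracture preparations were lower (log2 fold change -1.28, SE 0.21, adjusted p = 0.0241), and the adjusted p was 0.18 to 0.199 with 1 of them left out. Itgb3 reached a mean of 2605 CPM in Control and 2009 CPM in Fracture megakaryocyte-like cells. Per 100 UMIs of megakaryocyte markers, osteoblast-like cells held 5.47 and 13.8 in Control and 21.2 and 24.8 in Fracture UMIs of Itgb3, and megakaryocyte-like cells 8.47 and 11.8 in Control and 10.9 and 15.6 in Fracture. The part of megakaryocyte RNA in the osteoblast-like fall was not tested. BMSC-like cells, with 38.6 and 37.4 CPM in Control and 36.4 and 30.3 CPM in Fracture, did not pass the test (log2 fold change -0.19, adjusted p = 0.244), nor did fibroblast-like (log2 fold change 0.17, adjusted p = 0.679), chondrocyte-like (log2 fold change -0.030, adjusted p = 0.956), endothelial-like (log2 fold change 0.45, adjusted p = 0.281) or smooth muscle-like cells (log2 fold change 0.79, adjusted p = 0.304).

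Itgb5, which pairs with alpha V and binds vitronectin, was called higher in 3 classes. Chondrocyte-like cells had 61.9 and 63.2 CPM in Control and 116 and 122 CPM in Fracture. The groups were far apart relative to their spread (log2 fold change 0.93, SE 0.053, adjusted p = 0.00202). BMSC-like cells had 159 and 144 CPM in Control and 245 and 248 CPM in Fracture, also without overlap (log2 fold change 0.70, SE 0.080, adjusted p = 0.00405). Endothelial-like cells had 14.1 and 6.2 CPM in Control and 29.2 and 29 CPM in Fracture (log2 fold change 1.51, SE 0.39, adjusted p = 0.0406, and 2.23 without Control preparation 1). That last rise depended on which cells were counted. It was 0.63 on the log2 scale (adjusted p = 0.279) without the cells that had over 0.5% of their UMIs from chondrocyte markers, and -0.14 (adjusted p = 0.826) without the subclusters led by markers of another class. The call was also lost without the 6% of cells with the highest doublet scores (log2 fold change 1.11, adjusted p = 0.0879). Within the sinusoidal endothelial-like subclass Itgb5 was 13.1 and 5.37 CPM in Control and 4.1 and 5.05 CPM in Fracture in plain CPM, and within the arterial one 9.52 and 2.91 CPM in Control and 6.69 and 5.35 CPM in Fracture, and in neither did the Fracture preparations lie above the Control preparations. Osteoblast-like (log2 fold change 0.39, adjusted p = 0.0648), smooth muscle-like (log2 fold change 0.51, adjusted p = 0.0689) and fibroblast-like cells (log2 fold change -0.13, adjusted p = 0.505) did not pass the test. On leaving out either Fracture preparation the adjusted p was 0.0408 to 0.0437 in BMSC-like, 0.0531 to 0.0542 in chondrocyte-like and 0.191 to 0.205 in endothelial-like cells. Without integration the BMSC-like value was 0.51 (adjusted p = 0.118).

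Chondrocyte-like cells were divided further, since growth plate, articular and callus cartilage differ in their matrix. Values in this paragraph are plain CPM per preparation, given as a description. By the marker rule used for the classes, articular chondrocyte-like cells carried 3 of 6 markers (Cytl1, Clu and Abi3bp) and not Prg4, Crip1 and Creb5. That name gives the nearest marker list and does not place the cells in articular cartilage. Hypertrophic chondrocyte-like cells carried 4 of 6 and cycling-like cells 6 of 6. Hypertrophic chondrocyte-like cells, the last stage before cartilage is resorbed, numbered 318 and 142 in Control and 2208 and 2248 in Fracture. Itgb5 stood highest in them, at 131 and 135 CPM in Control and 176 and 181 CPM in Fracture. It was 63.9 and 43.6 CPM in Control and 85.2 and 94.2 CPM in Fracture in articular chondrocyte-like cells, and 39.1 and 35.9 CPM in Control and 62 and 68.7 CPM in Fracture in cycling-like cells. Fracture was higher in all 3, so the class-wide rise was also seen inside each of these subclasses. Itga1 followed a similar order, with 24.7 and 29.8 CPM in Control and 36.3 and 38.2 CPM in Fracture in hypertrophic and 3.76 and 4.94 CPM in Control and 5.92 and 6.22 CPM in Fracture in articular chondrocyte-like cells. Itga10 ran the other way, being 79.7 and 58.4 CPM in Control and 46.8 and 51.3 CPM in Fracture in hypertrophic and 106 and 103 CPM in Control and 72.8 and 77.7 CPM in Fracture in articular chondrocyte-like cells. Both Fracture preparations were lower in each. Itga5 was 15.4 and 13.2 CPM in Control and 26.4 and 25.4 CPM in Fracture in hypertrophic cells, with Fracture higher. Itgb1 was 151 and 154 CPM in Control and 198 and 203 CPM in Fracture in hypertrophic and 149 and 164 CPM in Control and 184 and 202 CPM in Fracture in cycling cells, and Itgb3 in hypertrophic cells was 16.4 and 13.2 CPM in Control and 18.3 and 19.7 CPM in Fracture. In articular chondrocyte-like cells Itga11 was 5.91 and 2.47 CPM in Control and 20.1 and 25.4 CPM in Fracture. Itga8 was 20.4 and 16.5 CPM in Control and 11.5 and 10.4 CPM in Fracture. In those cells Itga11 was higher and Itga8 lower in both Fracture preparations. Itga6 in hypertrophic cells went from 56.4 and 33.6 to 19.2 and 18.5 CPM. Unnamed cells, 1170 and 386 in Control and 3300 and 3474 in Fracture, pooled several clusters. The largest numbered 323 and 75 in Control and 2313 and 2450 in Fracture. The next numbered 814 and 290 in Control and 814 and 865 in Fracture. Levels in unnamed cells thus compare unlike mixtures of cells.

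**Figure D4:**
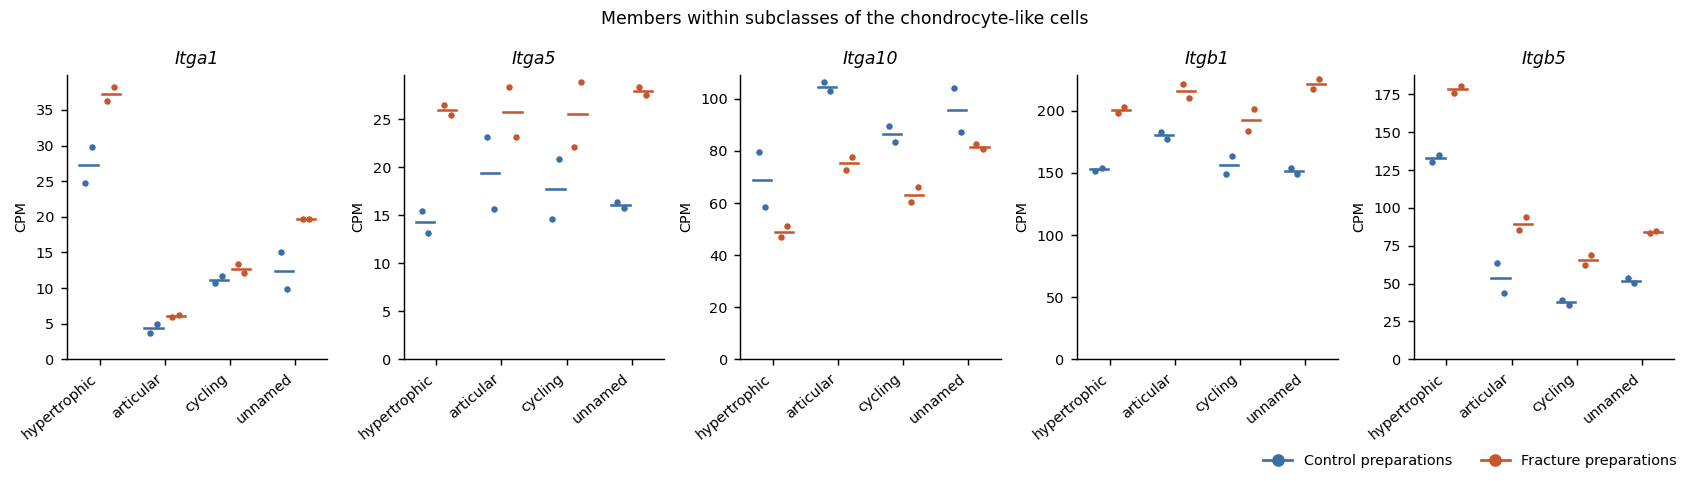
Level of Itga1, Itga5, Itga10, Itgb1 and Itgb5 (plain CPM, axis from 0) in hypertrophic, articular, cycling-like and unnamed chondrocyte-like cells, with 1 point per preparation and lines at the group means. In hypertrophic cells Itgb5 reaches 176 and 181 CPM in Fracture. Itga10 lies lower in both Fracture than in both Control preparations of each named subclass. The same holds in the unnamed cells, which pool clusters of unlike share in the groups.

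A second clustering of 14659 stromal cells, which pooled fibroblast-like, BMSC-like and osteoblast-like ones, gave clusters that included diaphyseal cells (dpMSC-like, 1736 and 1244 cells in Control and 471 and 519 in Fracture) and metaphyseal cells (mpMSC-like, 881, 498, 481 and 521 cells in the same order). In the former, removing the cells of finer subclusters led by markers of another class left 216 and 269 Fracture cells, but 1678 and 1208 Control cells. Of these subclusters, that led by erythroid markers held 59 and 36 Control and 255 and 250 Fracture cells. Acta2, Actg2 and Tagln were also among its leading genes. Clustering at resolution 0.5 kept the name for 183 and 224 Fracture and 1606 and 1160 Control cells. In dpMSC-like cells 5 members rose and 3 fell, where 55.1% of all genes were called, and their median log2 fold change was 0.35 against -0.025 over all genes. Itga1 was 169 and 206 CPM in Control and 31.3 and 41.7 CPM in Fracture (log2 fold change -2.36, SE 0.18, adjusted p = 0.000813). Itga5 was 15.8 and 13.4 CPM in Control and 80.2 and 84.1 CPM in Fracture (log2 fold change 2.49, SE 0.13, adjusted p = 0.000389), and Itgb5 82.9 and 87.2 CPM in Control and 256 and 270.0 CPM in Fracture (log2 fold change 1.63, SE 0.085, adjusted p = 0.000395). For all 3 the groups were further apart than the preparations of either group. Itga11 rose from 53.4 and 53.9 to 159 and 165 CPM (log2 fold change 1.59, SE 0.083, adjusted p = 0.000393). Itga10 rose from 3.99 and 1.42 to 15.9 and 22.3 CPM (log2 fold change 2.82, SE 0.47, adjusted p = 0.0065). Itga8 (log2 fold change -2.37, adjusted p = 0.000838) and Itga6 (log2 fold change -1.64, adjusted p = 0.0057) fell, and Itgb3 rose (log2 fold change 0.61, adjusted p = 0.0146), a call lost by total UMI count (log2 fold change 0.37, adjusted p = 0.0719). Itgav (log2 fold change 0.085, adjusted p = 0.444) and Itgb1 (log2 fold change 0.056, adjusted p = 0.645) did not pass the test, and their sign turned by total UMI count, under which the median of all genes was -0.27. With either Fracture preparation left out, 6 members were called, where 29.1% and 33.5% of all genes were. The calls of Itga6 and Itga10 were then lost once each (adjusted p 0.0451 to 0.0602 and 0.0469 to 0.0612) and that of Itgb3 both times (0.0504 to 0.0883). The 6 dpMSC-like markers summed to 46328 and 40855 CPM in Control and 3258 and 4422 CPM in Fracture, so that Fracture cells of this name held 11.4-fold less of the RNA that names them. Without the cells of subclusters led by markers of another class, 5 members still rose and 3 fell, where 42.8% of all genes were called, and the log2 fold change was then -1.62 (adjusted p = 0.00215) for Itga1 in dpMSC-like cells and -1.73 (adjusted p = 0.00232) for Itga8 in dpMSC-like cells. Without Control preparation 1, that of Itga10 in dpMSC-like cells was 3.76 (adjusted p = 1.90e-10). Erythroid markers in them summed to 228 and 1766 CPM in Control and 3717 and 7866 CPM in Fracture. Clustering without integration, which ended the calls of members in BMSC-like cells, was not run for dpMSC-like, mpMSC-like or septoclast-like cells.

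In mpMSC-like cells the sum of 6 own markers was 8294 and 7992 CPM in Control and 8325 and 7892 CPM in Fracture, most of it Mmp13 (5562 in Control and 6462 CPM in Fracture). By the marker rule used for the classes, this cluster carried Hey1, Pdgfrb, Mmp13 and Limch1 and not Postn and Aspn. Other markers of the name differed, Limch1 being 1127 in Control and 412 CPM in Fracture, Pdgfrb 421 in Control and 247 CPM in Fracture and Aspn 8.87 in Control and 79.4 CPM in Fracture. There 1 member rose and 3 fell, where 24.5% of all genes were called, and the median log2 fold change of the members was -0.27 against -0.013 over all genes. With the preparation number as a block 1 member was called, lower in Fracture, where 16.7% of all genes were called. Itga1 was 55.7 and 76.2 CPM in Control and 39 and 37.7 CPM in Fracture (log2 fold change -0.78, SE 0.17, adjusted p = 0.0288). It fell in both, with a fold change nearer to 0 here. Itga5 was 13.8 and 15.2 CPM in Control and 22.8 and 21.4 CPM in Fracture (log2 fold change 0.61, SE 0.14, adjusted p = 0.0334), and its call was lost by DESeq2 (log2 fold change 0.63, adjusted p = 0.159) and by total UMI count, under which the median of all genes was -0.16 and which called 0 members higher and 5 lower. Itgb3 was 59.4 and 70 CPM in Control and 43.5 and 38.1 CPM in Fracture (log2 fold change -0.66, SE 0.13, adjusted p = 0.0228), opposite in sign to dpMSC-like cells. Itga6 fell from 12.3 and 6.37 to 3.18 and 1.88 CPM (log2 fold change -1.92, SE 0.46, adjusted p = 0.0383), a call lost in cells of at least 3000 UMIs (log2 fold change -1.76, adjusted p = 0.0607). Without Control preparation 1 its log2 fold change was -1.32 (adjusted p = 0.0294). Itgb5 was 258 and 261 CPM in Control and 258 and 260.3 CPM in Fracture, and the groups overlapped (log2 fold change -0.0020, SE 0.070). Whether the effect of fracture differed between dpMSC-like and mpMSC-like cells was not tested. No gene was called by edgeR with 1 Fracture preparation left out (4 and 3 members had an unadjusted p under 0.05), and the adjusted p of the 4 called members was then 0.108 to 0.184.

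Septoclast-like cells, the mononuclear cells that resorb cartilage beside vessel buds, were few, with 61 and 32 cells in Control and 65 and 73 in Fracture. They were named in the clustering at resolution 0.5, so a cell may also be counted as mpMSC-like or dpMSC-like. Their 8 markers summed to 25726 and 23862 CPM in Control and 33525 and 22572 CPM in Fracture, mostly Mmp9 and Mmp13. Fabp5, a marker of septoclasts, was 350.2 in Control and 2039.7 CPM in Fracture, and Ctsb 920.3 in Control and 634 CPM in Fracture. None of the 8 members tested was called in them by edgeR, 1 had an unadjusted p under 0.05, DESeq2 called 0, and 5.63% of all genes were called. The member with the smallest p was Itga5, at 14.1 and 15.7 CPM in Control and 29.3 and 32 CPM in Fracture (log2 fold change 1.05, SE 0.40, adjusted p = 0.18), both Fracture preparations being higher. Itgb5 was 351 and 398 CPM in Control and 319.8 and 256 CPM in Fracture (log2 fold change -0.38, SE 0.17, adjusted p = 0.249), with both Fracture preparations lower. Itgav was 282 and 207 CPM in Control and 267 and 229.9 CPM in Fracture, which overlapped. Itga1, Itga10, Itga11, Itgb1 and Itgb3 did not pass the test either, with log2 fold changes of 0.51, -0.21, 0.25, -0.24 and -0.44. Itga6 and Itga8 were below the filter on low counts.

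**Figure D5:**
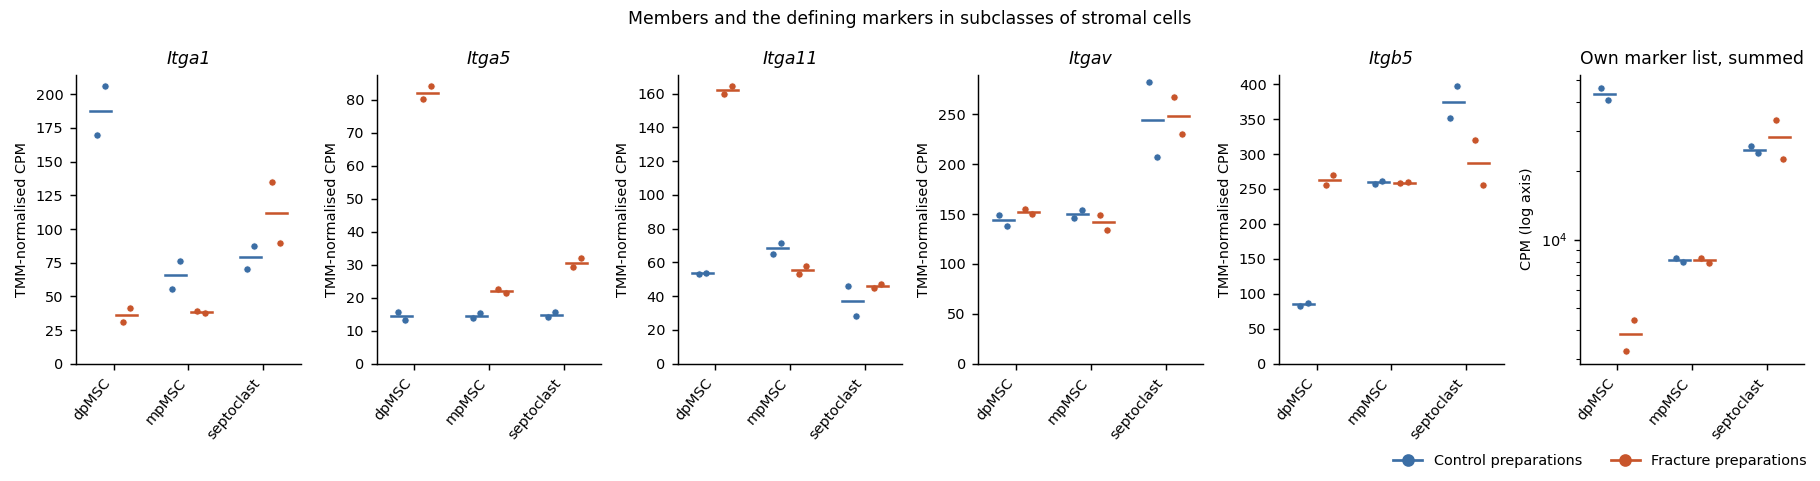
Level of Itga1, Itga5, Itga11, Itgav and Itgb5 (TMM-normalised CPM, axis from 0) in dpMSC-like, mpMSC-like and septoclast-like cells, with 1 point per preparation and lines at the group means, beside the summed plain CPM of the markers of each name (log axis). Itgb5 rises from 82.9 and 87.2 to 256 and 270.0 CPM in dpMSC-like cells, and lies at 258 to 261 CPM in Control and 258 to 260.3 CPM in Fracture mpMSC-like cells.

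Whether the effect of fracture was the same in the 6 classes was tested for each gene by an edgeR F test of the 5 class-by-group terms over the 24 sums of class and preparation, with the preparation as a block. With that block, the p-values measure the scatter of classes within preparations and not the spread between preparations. All 10 members were called, against 61.8% of the 17059 genes tested. Itga1 had the largest F of the members, 98.2, rank 66 of all genes (adjusted p = 1.10e-09), its fold changes being of opposite sign in BMSC-like and smooth muscle-like cells. Itga5 (adjusted p = 8.33e-07) differed in size and not in sign, from 0.34 in fibroblast-like to 2.06 in smooth muscle-like cells. Itgav ranged from -0.26 in chondrocyte-like to 1.13 in smooth muscle-like cells (adjusted p = 1.58e-06), while Itga10 ran from -0.77 in smooth muscle-like to 1.61 in endothelial-like cells (adjusted p = 1.61e-06). With 1 Fracture preparation left out, 7 and 6 of the 10 members were called, where 33% and 33.9% of all genes were, and with 1 Control preparation left out 10 were, where 56.2% and 60% of all genes were.

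The share of cells with a UMI of a member was compared after each cell was thinned to 1000 UMIs, because depth per cell differed between groups. Itgb5 was found in 6.82% and 6.23% in Control and 11.1% and 10.7% in Fracture of chondrocyte-like cells, and both Fracture preparations were higher. The erythroid-like share was 0.322% and 0.282% in Control and 0.971% and 1.06% in Fracture. Without thinning, the chondrocyte-like shares were 51.1% and 55.1% in Control and 66.7% and 70.1% in Fracture, at medians of 15100 and 12713 UMIs per cell. Itga1 was found in 13.6% and 16.1% in Control and 3.89% and 5.56% in Fracture of BMSC-like cells, and in 13.4% and 14.4% in Control and 3.9% and 5.43% in Fracture of endothelial-like cells. In smooth muscle-like cells it was found in 11.9% and 14.2% in Control and 21.7% and 26.2% in Fracture, and in erythroid-like cells in 0.161% and 0% in Control and 0% and 0% in Fracture. Unthinned, the smooth muscle-like shares were 42.5% and 46.9% in Control and 78.9% and 75% in Fracture, at medians of 4758 and 7675.5 UMIs. At equal depth, a smaller share of BMSC-like and endothelial-like cells and a larger share of smooth muscle-like cells held an Itga1 UMI in both Fracture preparations. With 2 preparations against 2, the two-sided exact permutation test cannot give a p below 0.333, so no share passed a test. Thinning left out 67 Control BMSC-like and 92 Control endothelial-like cells under 1000 UMIs, and no Fracture cell of the 6 classes.

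Both chains of a receptor were also sought in the same cell at this depth, as a description. Itga1 with Itgb1 was found in 6.42% and 6.16% in Control and 10.2% and 11.3% in Fracture of smooth muscle-like cells, with both Fracture preparations higher. It was lower in both Fracture preparations of BMSC-like cells, at 5.26% and 7.02% in Control and 1.71% and 2.47% in Fracture, and of endothelial-like cells, at 5.1% and 5.32% in Control and 1.99% and 2.43% in Fracture. Itga6 with Itgb1, the laminin receptor, was found in 13.8% and 9.19% in Control and 12.4% and 11.2% in Fracture of endothelial-like cells, and the groups overlapped. Itga5 with Itgb1, the fibronectin receptor, was found in 0.78% and 0.754% in Control and 1.9% and 1.68% in Fracture of BMSC-like cells. Itgav with Itgb5, the vitronectin receptor, was found in 1.72% and 1.04% in Control and 3.32% and 2.03% in Fracture of BMSC-like and 0.419% and 0.474% in Control and 4.22% and 3.57% in Fracture of smooth muscle-like cells. In each of these last 3 comparisons the Fracture preparations lay above the Control preparations, while in osteoblast-like and fibroblast-like cells both pairs overlapped. The smooth muscle-like shares rest on few cells, since the Fracture preparations held 166 and 168 of this class. Erythroid-like cells held Itgav with Itgb5 in 0% and 0% in Control and 0.485% and 0.353% in Fracture.

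For each member the 3 genes with the most similar pattern were found by Pearson's r of log2(CPM + 1) over the 24 sums, among 6590 genes with a mean of at least 20 CPM. The 24 sums come from 4 preparations and share their libraries, so r is given as a description. Itgb1 was closest to Gpr124 (r = 0.96), Arid5b (r = 0.953) and Esyt1 (r = 0.949), and Itga1 to Apbb2 (r = 0.945), Tbl1x (r = 0.938) and Syde1 (r = 0.932). Itga5 was closest to Clic1 (r = 0.969), Sh3bgrl3 (r = 0.959) and Piezo2 (r = 0.945). Itgb5 was closest to Nenf (r = 0.949), Tgfb3 (r = 0.938) and Ahi1 (r = 0.927), of which Tgfb3 encodes a transforming growth factor beta. Itga11 was closest to Mxra8 (r = 0.924), Sphk1 (r = 0.912) and Pdgfra (r = 0.897), of which Pdgfra encodes a growth factor receptor of mesenchymal cells. Itga6 followed Vamp3 (r = 0.911), Orai1 (r = 0.91) and Cttnbp2nl (r = 0.909), and Itga8 Itpk1 (r = 0.956), Suco (r = 0.95) and Crtc3 (r = 0.949). Itga10 followed Cpe (r = 0.917), Tecr (r = 0.914) and Prorsd1 (r = 0.913), Itgav Olfml2b (r = 0.95), Fhl2 (r = 0.914) and Dhrs4 (r = 0.913), and Itgb3 Kdelc2 (r = 0.909), Adprh (r = 0.908) and Lysmd2 (r = 0.90).

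The ligands of these receptors were examined as fixed lists. For each list the share of all genes called in the class stands in parentheses, and the medians over all genes are those given above. Of the collagen and laminin genes tested, 8 of 13 rose and 1 fell in chondrocyte-like (37.1%), 5 of 13 rose and 5 fell in BMSC-like (51.6%), 10 of 12 rose and 2 fell in endothelial-like (36.2%), 8 of 13 rose and 2 fell in smooth muscle-like (28%), 7 of 13 rose and 2 fell in fibroblast-like (17%) and 2 of 11 rose and 1 fell in osteoblast-like (16.7%) cells. The median log2 fold change of the list was 0.68 in chondrocyte-like, -0.014 in BMSC-like, 1.16 in endothelial-like, 1.53 in smooth muscle-like, 0.88 in fibroblast-like and 0.47 in osteoblast-like cells. An endothelial-like subcluster of 70 and 27 Control and 257 and 249 Fracture cells had Col2a1, Col1a1 and Col1a2 among its leading genes. The part of that subcluster in the endothelial-like values was not tested. Col3a1, a fibrillar collagen of loose and healing tissue, was 25.6 and 9.74 CPM in Control and 1806 and 1764 CPM in Fracture in chondrocyte-like cells (log2 fold change 6.65, SE 0.59, adjusted p = 0.00429). In osteoblast-like cells it was 49.7 and 57.7 CPM in Control and 349 and 368 CPM in Fracture (log2 fold change 2.74, SE 0.10, adjusted p = 0.00234), and in BMSC-like cells 476 and 254 CPM in Control and 6230.5 and 6366 CPM in Fracture (log2 fold change 4.11, SE 0.38, adjusted p = 0.00275). Col3a1 was thus higher in Fracture in each, from very different levels. Col2a1, the main cartilage collagen, was higher in endothelial-like cells (log2 fold change 3.25, adjusted p = 0.0117), smooth muscle-like cells (log2 fold change 3.36, adjusted p = 0.00244) and BMSC-like cells (log2 fold change 2.61, adjusted p = 0.00655), and is one of the 6 chondrocyte markers described above.

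Of the ligands of the arginine-glycine-aspartate type and matricellular proteins, 7 of 13 rose and 1 fell in chondrocyte-like (37.1%), 8 of 15 rose and 2 fell in BMSC-like (51.6%), 9 of 13 rose and 1 fell in endothelial-like (36.2%), 11 of 14 rose and 0 fell in smooth muscle-like (28%), 2 of 15 rose and 2 fell in fibroblast-like (17%) and 8 of 13 rose and 3 fell in osteoblast-like (16.7%) cells. The median log2 fold change of the list was 0.49 in chondrocyte-like, 0.73 in BMSC-like, 1.64 in endothelial-like, 1.35 in smooth muscle-like, -0.048 in fibroblast-like and 0.62 in osteoblast-like cells. Ibsp, a gene of this list, was also among the leading genes of the endothelial-like subcluster led by collagen genes. The part of that subcluster in these values was not tested either. Fn1, fibronectin and the ligand of the Itga5 product, was 356 and 213 CPM in Control and 4483 and 4375 CPM in Fracture in BMSC-like cells (log2 fold change 3.96, SE 0.31, adjusted p = 0.00224), and 455 and 353 CPM in Control and 995 and 1013 CPM in Fracture in osteoblast-like cells (log2 fold change 1.31, SE 0.14, adjusted p = 0.0102). Both classes had higher Fn1 and higher Itga5 after fracture. Spp1, osteopontin, a ligand of alpha V integrins, was 1362 and 941 CPM in Control and 3373 and 3433 CPM in Fracture in osteoblast-like cells (log2 fold change 1.56, SE 0.20, adjusted p = 0.0146) and also rose in chondrocyte-like cells (log2 fold change 1.14, adjusted p = 0.0117). Postn, periostin, was 232 and 63.6 CPM in Control and 2092 and 2023 CPM in Fracture in fibroblast-like cells (log2 fold change 3.78, SE 0.63, adjusted p = 0.024). Ctgf, a matricellular growth factor, fell there from 2975 and 2693 to 342 and 262 CPM (log2 fold change -3.23, SE 0.20, adjusted p = 0.00398). In mpMSC-like cells Fn1 rose (log2 fold change 2.02, adjusted p = 0.00245) and Npnt, nephronectin, the ligand of the Itga8 product, fell (log2 fold change -1.34, adjusted p = 0.016). In septoclast-like cells Fn1 rose (log2 fold change 1.37, adjusted p = 0.0152) and Tnc, tenascin C, fell (log2 fold change -1.02, adjusted p = 0.0079).

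Of the adaptors and kinases of adhesion sites, 6 of 20 rose and 4 fell in chondrocyte-like (37.1%), 8 of 20 rose and 3 fell in BMSC-like (51.6%), 2 of 20 rose and 3 fell in endothelial-like (36.2%), 5 of 20 rose and 6 fell in smooth muscle-like (28%), 4 of 20 rose and 0 fell in fibroblast-like (17%) and 1 of 20 rose and 1 fell in osteoblast-like (16.7%) cells, with the share of all genes called again in parentheses. The median log2 fold change of the list was 0.22 in chondrocyte-like, 0.16 in BMSC-like, -0.021 in endothelial-like, -0.19 in smooth muscle-like, 0.13 in fibroblast-like and 0.062 in osteoblast-like cells. Actn1, an actin crosslinker of adhesion sites, was 42.8 and 30.4 CPM in Control and 142 and 145 CPM in Fracture in fibroblast-like cells (log2 fold change 1.95, SE 0.18, adjusted p = 0.00777) and rose in BMSC-like cells (log2 fold change 0.95, adjusted p = 0.0022). Tns1, tensin 1, which ties integrin tails to actin, was 593 and 502 CPM in Control and 170.2 and 178 CPM in Fracture in smooth muscle-like cells (log2 fold change -1.65, SE 0.14, adjusted p = 0.00244) and fell in endothelial-like cells as well (log2 fold change -1.23, adjusted p = 0.00516). Flna, filamin A, fell in smooth muscle-like cells too (log2 fold change -1.52, adjusted p = 0.00684). Of the markers of these cells, Acta2 and Myh11 were 2.03- and 5.45-fold lower, while Des was higher. Any link between these differences was not tested. Of the matrix receptors other than integrins, 2 of 5 rose and 2 fell in chondrocyte-like (37.1%), 3 of 5 rose and 2 fell in BMSC-like (51.6%), 2 of 5 rose and 0 fell in endothelial-like (36.2%), 3 of 5 rose and 0 fell in smooth muscle-like (28%), 2 of 5 rose and 0 fell in fibroblast-like (17%) and 2 of 5 rose and 0 fell in osteoblast-like (16.7%) cells. Cd44, the hyaluronan receptor, was 16.5 and 21 CPM in Control and 109.8 and 125 CPM in Fracture in smooth muscle-like cells (log2 fold change 2.68, SE 0.19, adjusted p = 0.00205). Ddr1, a collagen-binding receptor kinase, fell in BMSC-like cells (log2 fold change -1.63, adjusted p = 0.00278). Of the other integrin subunits, 2 of 12 rose and 6 fell in chondrocyte-like (37.1%), 3 of 11 rose and 3 fell in BMSC-like (51.6%), 0 of 9 rose and 1 fell in endothelial-like (36.2%), 1 of 6 rose and 3 fell in smooth muscle-like (28%), 0 of 11 rose and 3 fell in fibroblast-like (17%) and 0 of 8 rose and 1 fell in osteoblast-like (16.7%) cells. Itga9 was 91 and 103 CPM in Control and 52.7 and 51.8 CPM in Fracture in endothelial-like cells (log2 fold change -0.89, SE 0.088, adjusted p = 0.00662), and lower in BMSC-like (log2 fold change -0.71, adjusted p = 0.0173) and septoclast-like cells (log2 fold change -1.04, adjusted p = 0.0358) too. Itga7, the laminin receptor subunit of muscle, was 168 and 187 CPM in Control and 63.8 and 87 CPM in Fracture in smooth muscle-like cells (log2 fold change -1.23, SE 0.18, adjusted p = 0.00839), where Itga1, Itga5 and Itgav rose.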

How the data were processed

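The deposited tables held raw UMI counts per gene and cell, which the authors made with droplet barcodes and UMIs, and no normalised values. The submitters' processing notes name bcl2fastq 2.19.1.403, UMI-tools 1.0.0, STAR 2.7.3a, Subread and featureCounts 1.6.4 with mm10, without roles. Their methods name another counting program, so which made the tables is not settled. How barcodes were chosen may differ between groups, since the smallest Control barcode held 1 UMI and the smallest Fracture barcode 1929. Strand and multimapping rules, which decide shared reads, are not given in the sources used here.

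Cells with 500 to 6000 detected genes and at most 25% mitochondrial UMIs were kept, and genes found in at least 3 cells (26180). Libraries were integrated and clustered with Seurat 5.3.0 (2000 variable genes less integrin and cell cycle genes, 12 components, resolution 0.1). Scrublet, run in scanpy 1.11.5, called 718 doublets (1.58%), which stayed in. UMIs were summed per class and preparation, over its 2 libraries, for classes of at least 20 cells in every preparation, and were tested in R 4.3.3 with edgeR 4.0.16 (glmQLFit and glmQLFTest, TMM factors) after the default filter on low counts, on the samples of that class alone. The code was first tested on simulated counts. DESeq2 1.42.0, other scalings, filters, clusterings and cell sets were tried as alternatives. The 3 alternatives that removed the highest doublet scores, subclusters led by other markers and cells over 0.5% of chondrocyte marker UMIs were chosen after seeing the data.

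All 10 members were described. Of each fixed list of ligands, adaptors and receptors, up to 3 called genes per comparison could be named, those of largest fold change among genes of at least 20 CPM whose groups did not overlap. For likeness, the 3 genes of highest r were named. Members and lists were chosen with earlier results of these data known. Protein sequences were not used here.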

Additional observations from a re-analysis of the deposited data

Results flagged for a closer look

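All 10 members were singled out because their difference between Fracture and Control was not the same in the 6 classes by the edgeR F test of the class-by-group terms with Benjamini-Hochberg adjustment, a test that also called 61.8% of all genes. Among the collagen receptors, the log2 fold change ran from -1.97 in BMSC-like to 1.03 in smooth muscle-like cells (adjusted p = 1.10e-09) for Itga1, from -0.77 in smooth muscle-like to 1.61 in endothelial-like cells (adjusted p = 1.61e-06) for Itga10 and from -0.15 in osteoblast-like to 2.04 in smooth muscle-like cells (adjusted p = 0.000126) for Itga11. For Itga6, the laminin receptor, it ran from -2.76 in fibroblast-like to 0.88 in smooth muscle-like cells (adjusted p = 0.000394). The receptors of the arginine-glycine-aspartate type ran from 0.34 in fibroblast-like to 2.06 in smooth muscle-like cells (adjusted p = 8.33e-07) for Itga5, from -2.34 in BMSC-like to -0.44 in endothelial-like cells over the 5 classes with a value of their own (adjusted p = 0.0176, for the terms of all 6 classes) for Itga8 and from -0.26 in chondrocyte-like to 1.13 in smooth muscle-like cells (adjusted p = 1.58e-06) for Itgav. The beta subunits ran from -0.050 in BMSC-like to 0.60 in chondrocyte-like cells (adjusted p = 2.76e-06) for Itgb1, from -1.28 in osteoblast-like to 0.79 in smooth muscle-like cells (adjusted p = 0.00801) for Itgb3 and from -0.13 in fibroblast-like to 1.51 in endothelial-like cells (adjusted p = 0.000358) for Itgb5. With 1 Fracture preparation left out, 7 and 6 members were called. No sample was tested as an outlier, since a group held 2 preparations.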

How the results depend on the processing

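Of the 483 values of called members under alternatives that kept all preparations, 1 turned its sign and 37 lost the call, and of 168 with 1 preparation left out, 0 turned and 58 lost the call. The cause was not tested. The number of called members with 1 preparation left out was 0 to 10 in chondrocyte-like, 0 to 7 in endothelial-like, 0 to 6 in fibroblast-like, 0 to 6 in osteoblast-like, 1 to 7 in smooth muscle-like and 0 to 5 in mpMSC-like cells, and 6 to 10 for the difference between classes. Without integration it was 0 instead of 6 in BMSC-like cells. With the libraries kept apart it was 5 instead of 3 in fibroblast-like and 6 instead of 3 in osteoblast-like cells, and without the filter on low counts 6 in fibroblast-like cells. The labels do not say whether the preparation numbers pair the samples. Deviations of same-numbered preparations from their group means correlated at 0.0109 to 0.0936 in the 6 classes, and 2 preparations a group cannot settle it. With the number as a block, 3 members were called instead of 6 in smooth muscle-like and 1 instead of 4 in mpMSC-like cells. It ended the calls of Itga8, Itga10 and Itga11 in the former and of Itga1, Itga5 and Itgb3 in the latter, and those of Itgav in chondrocyte-like, Itgb1 in fibroblast-like and Itgb5 in endothelial-like cells, and no other call of a member. Over all genes, the count of calls was 6413 in chondrocyte-like, 2294 in osteoblast-like, 7625 in BMSC-like, 2117 in fibroblast-like, 2945 in smooth muscle-like, 2996 in mpMSC-like and 405 in septoclast-like cells. It differed by over 1.5 times in some settings, being 4231 in chondrocyte-like, 1245 in osteoblast-like, 709 in fibroblast-like, 1770 in smooth muscle-like and 10 in septoclast-like cells with the preparation number as a block, 3783 in fibroblast-like, 4650 in mpMSC-like and 1020 in septoclast-like cells without the filter on low counts, 4924 in osteoblast-like and 3817 in fibroblast-like cells with libraries kept apart, 177 in BMSC-like cells without integration of the libraries and 216 in septoclast-like cells by DESeq2.

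The log2 fold changes whose sign turned were those of members not called, except for Itgb5 in endothelial-like cells. Without integration of the libraries it was 0.59 for Itga1 in osteoblast-like, 0.21 for Itgav in BMSC-like, 0.093 for Itgb1 in smooth muscle-like and 0.27 for Itgb3 in BMSC-like cells. By total UMI count it was -0.16 for Itgav in dpMSC-like, -0.050 for Itgav in septoclast-like, -0.19 for Itgb1 in dpMSC-like and 0.038 for Itgb1 in osteoblast-like cells. With the preparation number as a block it was 0.0041 for Itga6 in endothelial-like and 0.061 for Itgb3 in chondrocyte-like cells. Without called doublets it was 0.0088 for Itga6 in endothelial-like and -0.0089 for Itgav in septoclast-like cells. In cells of at least 3000 UMIs it was 0.031 for Itga6 in endothelial-like, -0.0081 for Itgav in septoclast-like and 0.060 for Itgb3 in chondrocyte-like cells. Without the 6% of cells with the highest doublet scores it was 0.22 for Itga1 in osteoblast-like, 0.10 for Itga6 in endothelial-like, -0.039 for Itgav in septoclast-like, 0.034 for Itgb1 in smooth muscle-like, 0.10 for Itgb3 in chondrocyte-like and -0.077 for Itgb3 in fibroblast-like cells. Without subclusters led by markers of another class it was 0.17 for Itga6 in endothelial-like, 0.035 for Itgb3 in chondrocyte-like and -0.14 for Itgb5 in endothelial-like cells. Without cells over 0.5% of chondrocyte marker UMIs it was 0.11 for Itga6 in endothelial-like, 0.078 for Itgb1 in smooth muscle-like and 0.020 for Itgb5 in mpMSC-like cells. At a clustering resolution of 0.2, it was 0.17 for Itga6 in chondrocyte-like cells. Without the filter on low counts it was 0.018 for Itgb3 in chondrocyte-like cells. By DESeq2 it was 0.0022 for Itgb1 in smooth muscle-like and 0.013 for Itgb5 in mpMSC-like cells. With DESeq2 size factors it was 0.0018 for Itgb1 in smooth muscle-like cells. With libraries kept apart it was 0.0055 for Itgb1 in smooth muscle-like cells. Of these, Itga1 in osteoblast-like cells was then called without integration (adjusted p = 0.0246). With 1 preparation left out, the range was -0.51 to 0.31 for Itga1 in osteoblast-like, -0.41 to 0.24 for Itga10 in septoclast-like, -0.32 to 0.086 for Itga6 in chondrocyte-like, -0.16 to 0.15 for Itga6 in endothelial-like, -0.088 to 0.015 for Itgav in BMSC-like and -0.17 to 0.27 for Itgav in septoclast-like cells. Beside these were -0.084 to 0.0076 for Itgb1 in BMSC-like, -0.076 to 0.010 for Itgb1 in osteoblast-like, -0.056 to 0.041 for Itgb1 in smooth muscle-like, -0.41 to 0.59 for Itgb3 in chondrocyte-like, -0.18 to 0.55 for Itgb3 in fibroblast-like and -0.00094 to 0.013 for Itgb5 in mpMSC-like cells. How many shares of cells with a UMI did not overlap between the groups moved by less than 1.5 times without thinning or without called doublets. Septoclast-like cells numbered 32 to 73 per preparation, and 2 preparations a group limit all tests.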

Other observations

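Some values belong to cells outside the comparisons above and are given in plain CPM per preparation, with no test. Megakaryocyte-like cells, 748 and 231 in Control and 23 and 21 in Fracture, held the highest Itga6 and Itgb3 of all named classes. Itga6 was 7025 and 7615 CPM in Control and 4154 and 5815 CPM in Fracture, and Itgb3 was 2805 and 2406 CPM in Control and 1871 and 2147 CPM in Fracture. Itgb5 reached 585 and 659 CPM in Control and 316 and 550.4 CPM in Fracture there. Itga5 was 20.7 and 20.8 CPM in Control and 55.3 and 27.5 CPM in Fracture in the same cells. Within the endothelial-like class, Itga1 was 243 and 256 CPM in Control and 125 and 145 CPM in Fracture in sinusoidal and 133 and 164 CPM in Control and 75.2 and 76.6 CPM in Fracture in arterial cells. Both Fracture preparations were lower than both Control preparations in each subclass. Itga6 was 195 and 161 CPM in Control and 261 and 263 CPM in Fracture in sinusoidal and 363 and 317 CPM in Control and 279 and 263 CPM in Fracture in arterial cells. It was thus higher in Fracture in the sinusoidal and lower in the arterial cells, in both preparations. In erythroid-like cells Itgb1 was 136 and 172 CPM in Control and 149.6 and 138 CPM in Fracture.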
